A study of Homo sapiens with 4 samples.

Results

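The genes described here are 50 genes of DNA replication and the S phase of the cell cycle, followed in prostate cancer cells given an androgen with or without an inhibitor of the KDM5 histone demethylases. They were taken from a list of gene symbols that covers origin licensing, the replication fork, nucleotide supply and the E2F regulators. The symbols were picked by function, with earlier results of these data known. All 50 were found among the 60675 genes of the count files, and all 50 were among the 17600 genes with enough counts to be tested. The cells were LNCaP, a human prostate cancer line that responds to androgen, grown in medium with hormone-depleted serum. One group of 2 libraries came from cells kept for 72 h in 1 nM R1881, a synthetic androgen, plus the DMSO vehicle. The other group of 2 libraries came from cells kept for 72 h in 1 nM R1881 plus 50 µM CPI-455, which blocks the KDM5 enzymes that remove methyl groups from lysine 4 of histone H3. All 4 libraries therefore received androgen, and neither group shows the cells without it. Both groups are 1 cell line, the study's methods call the samples biological replicates, and the labels and the methods give different final DMSO concentrations for the vehicle. In RNA from whole cultures, fewer cells in S phase and less RNA per cell cannot be told apart.

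Replication starts from origins that are licensed in G1, when the origin recognition complex (ORC), CDC6 and CDT1 load the ring of MCM proteins onto DNA. In S phase CDC45 and the GINS complex turn the ring into an active helicase, the polymerase alpha-primase complex lays down primers, and polymerases epsilon and delta extend them with the sliding clamp PCNA, which replication factor C (RFC) loads. On the lagging strand FEN1 trims the flaps between Okazaki fragments and LIG1 seals the nicks. Many of these genes are known targets of the E2F transcription factors, which the RB family restrains until cyclin E and its kinase act at the end of G1, and proliferating cancer cells express them strongly.

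Depth differed between the groups, from 19623553 and 20690819 counted fragments with vehicle down to 9522920 and 5401588 with CPI-455, and weakly expressed genes are less certain in the latter. A count of 3 fragments corresponded to 0.137 to 0.142 normalized CPM (counts scaled to library size) with vehicle and 0.337 to 0.595 with CPI-455. The share of the 10 highest genes was 3.45% in each library with vehicle but 9.57% to 11.0% with the inhibitor, the non-coding RNA MALAT1 took 0.0884% to 0.114% against 4.95% to 6.49%, and the mitochondrial genome took 1.91% to 2.43% against 0.967% to 1.24%. The part of these shifts in the results was not tested.

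The cell type of the labels was checked with 8 genes of luminal prostate epithelium, of which all were detected in every library. Of these, 4 fell with CPI-455: FOLH1, which encodes prostate-specific membrane antigen (log2 fold change -2.58), HOXB13 (-2.01), KLK3, which encodes prostate-specific antigen (-1.65), and the keratin KRT8 (-1.07). The other values were -0.66 for TMPRSS2, -0.43 for KRT18, 0.33 for EPCAM and 0.56 for KLK2. Their summed level was 734 and 803 CPM with vehicle and 369 and 424 CPM with CPI-455. Of 13 markers of basal, stromal, immune and endothelial cells, COL1A1 and VWF alone passed the filter on low counts, at log2 fold changes of 1.00 and -2.07 of which the first was called. Their summed level ran from 6.32 to 6.63 CPM with vehicle and from 11.9 to 12.8 CPM with CPI-455, and 4, 5, 8 and 10 of the 13 had no count in vehicle replicates 1 and 2 and CPI-455 replicates 1 and 2. In the same order their summed counts were 140, 138, 114 and 60, and without COL1A1 they were 35, 50, 24 and 21. KRT5, the defining basal keratin, was at 0 in all 4 libraries, and the other untested markers, KRT14, TP63, COL1A2, COL3A1, DCN, PTPRC, CD3E, CD68, PECAM1 and CDH5, had at most 15 counts in any library. Of the enzymes that CPI-455 targets, KDM5B mRNA fell (log2 fold change -1.07, FDR = 4.92e-05), KDM5A had a value of 0.77 that passed the FDR threshold below 2-fold, and KDM5C had 0.03.

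The replication genes did not move as a block. With CPI-455, 10 of the 50 fell by at least 2-fold, 7 rose by at least 2-fold, and 33 did not pass both thresholds. FEN1, the flap nuclease, fell the most, by 2.66 on the log2 scale, and TIMELESS, which protects the fork, rose the most, with a log2 fold change of 2.29. The genes that fell included the licensing factor CDC6, cyclin E1 (CCNE1), E2F1 and the thymidylate synthase TYMS, and the genes that rose included the ligase LIG1, 2 accessory polymerase subunits (POLA2 and POLE2) and the clamp loader subunit RFC4. All fold changes are CPI-455 over vehicle, so a negative value is a lower level with CPI-455.

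A gene was called when its false discovery rate (FDR) in edgeR's quasi-likelihood test, adjusted by Benjamini-Hochberg over all tested genes, was below 0.05 and its change was at least 2-fold. The members called lower were 20.0% of the 50, against 21.3% of all tested genes and 24.4% of the 13813 protein-coding ones. Those called higher were 14.0%, against 21.0% of all tested genes and 15.6% of the protein-coding ones. Under both thresholds the members were called lower about as often as other genes, and higher less often than all tested genes but about as often as protein-coding ones. On the FDR alone, 28 members (56.0%) passed lower, against 32.8% of all tested genes and 38.7% of protein-coding ones, and 14 (28.0%) passed higher, against 29.8% and 26.3%. The other 8 passed in neither direction. A larger share of the members than of the background thus passed the FDR threshold lower but short of 2-fold, a difference that was not tested. Such a share also depends on level, since small changes pass the FDR threshold more easily at high counts. The median level was 23.7 CPM per kilobase of exon for the members, against 4.46 for all tested genes and 5.78 for protein-coding ones. Both vehicle libraries lay above both CPI-455 libraries for 32 members (42.8% of all tested genes), the reverse held for 15 (39.1% of all tested genes), and the groups overlapped for 3. The median log2 fold change of the members was -0.45 (interquartile range -0.94 to 0.60), beside -0.04 for all tested genes and -0.21 for protein-coding ones. It stayed below 0 in each alternative, between -0.64 with library totals alone and -0.26 with a trend on exon length and GC removed.

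The balance of the calls depended on how the libraries were scaled and on whether a length and GC trend was removed. The 10 lower and 7 higher members became 6 and 11 with upper-quartile normalization, 6 and 11 with protein-coding genes alone, and 17 and 5 with library totals alone. Of all genes tested, 17.6% were then called lower and 24.4% higher with upper-quartile normalization, and 25.9% and 17.8% with library totals alone. With protein-coding genes alone these shares were 19.8% and 19.2%. Upper-quartile normalization and library totals moved the median of all tested genes by 0.17 and -0.19 on the log2 scale. With protein-coding genes alone, which changes both the scaling and the genes tested, the median of those genes moved by 0.18. Removal of the length and GC trend, which is not a scaling of whole libraries, gave 8 members lower and 10 higher. Of all tested genes, 18.2% were then called lower and 20.7% higher. Under that removal GINS3, POLD3, RRM1 and CCNE2 lost the call, and TK1 (-1.51) and RPA2 (-1.04) became called lower. ORC6 (1.11), GINS4 (1.18) and RPA3 (1.16) became called higher. A scaling shifts every gene of a library by the same factor, so the ratio of 2 members within a library is free of it. The sign of the change was the same in every alternative for 45 members, and it flipped in at least 1 for E2F8, GINS1, MCM7, RFC5 and RRM2, whose values lay between -0.33 and 0.08. FEN1, CCNE1, CDC6 and TYMS stayed called lower, and TIMELESS, POLE2, LIG1, POLA2 and RFC4 stayed called higher, in all 16 alternatives that kept the threshold.

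**Figure D1:**
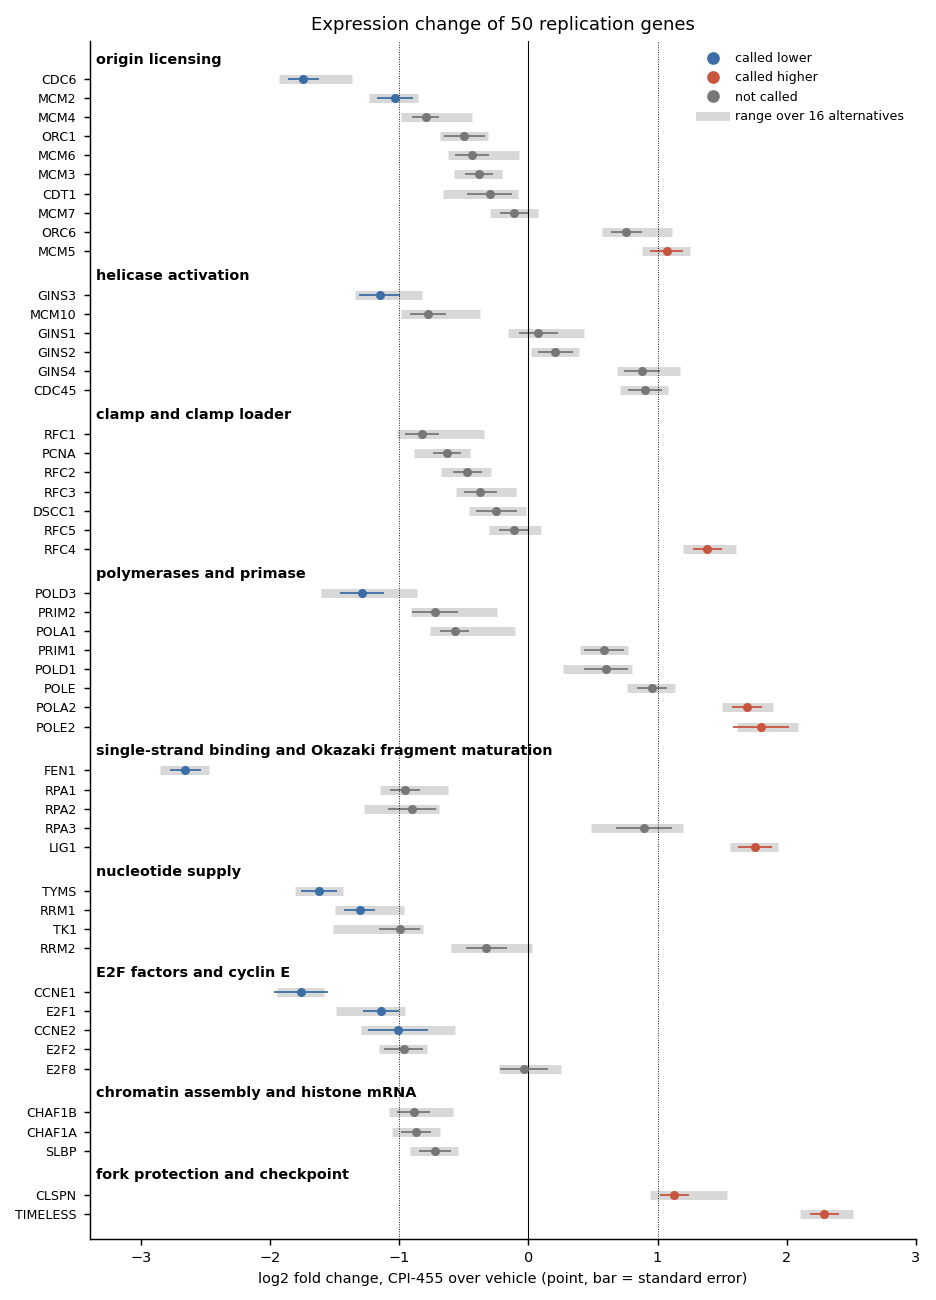
Log2 fold change of each of the 50 replication genes (x axis, CPI-455 over vehicle), grouped by role, with the standard error as a thin bar and the range over the 16 alternatives as a grey band. Points run from -2.66 (FEN1) to 2.29 (TIMELESS), blue points are the 10 called lower, red points the 7 called higher, and the bands of E2F8, GINS1, MCM7, RFC5 and RRM2 cross 0.

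The proximal promoters of 6 called members are shown because E2F binding to such sequences is the textbook route to their S-phase expression. The set holds the 4 called members in which an E2F octamer was found, TYMS and E2F1 among those that fell and POLA2 and LIG1 among those that rose, together with the members that changed the most, FEN1 and TIMELESS. It was chosen after the values were seen. Each sequence is the 250 bases before the gene start in RefSeq on GRCh38.p14, written 5′ to 3′ on the strand of the gene, and capitals mark the octamers TTTCCCGC, TTTGGCGC, TTTCGCGC and TTTGCCGC on either strand. The windows lie at chr11:61792661-61792910 (plus strand) for FEN1, chr18:657403-657652 (plus strand) for TYMS, chr20:33686386-33686635 (minus strand) for E2F1, chr11:65261712-65261961 (plus strand) for POLA2, chr19:48170345-48170594 (minus strand) for LIG1 and chr12:56449427-56449676 (minus strand) for TIMELESS. In the annotation used for counting, the models of FEN1, TYMS, E2F1, POLA2 and LIG1 begin further upstream, so that some or all of those windows lies inside the model, while the TIMELESS window lies wholly before it.
FEN1: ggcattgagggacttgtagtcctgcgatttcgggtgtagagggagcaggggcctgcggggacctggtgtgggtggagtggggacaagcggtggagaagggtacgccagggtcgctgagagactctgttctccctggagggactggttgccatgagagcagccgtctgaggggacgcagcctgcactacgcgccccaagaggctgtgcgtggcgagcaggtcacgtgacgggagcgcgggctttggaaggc
TYMS: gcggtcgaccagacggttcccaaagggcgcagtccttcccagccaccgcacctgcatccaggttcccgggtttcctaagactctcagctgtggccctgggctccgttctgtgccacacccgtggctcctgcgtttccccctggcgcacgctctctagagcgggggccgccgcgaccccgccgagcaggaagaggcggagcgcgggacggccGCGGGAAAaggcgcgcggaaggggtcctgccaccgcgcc
E2F1: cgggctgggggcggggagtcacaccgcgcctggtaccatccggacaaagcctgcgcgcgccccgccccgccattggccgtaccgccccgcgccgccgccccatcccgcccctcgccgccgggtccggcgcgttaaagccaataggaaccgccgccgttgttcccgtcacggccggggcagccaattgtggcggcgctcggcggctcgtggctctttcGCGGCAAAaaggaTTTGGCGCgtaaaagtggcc
POLA2: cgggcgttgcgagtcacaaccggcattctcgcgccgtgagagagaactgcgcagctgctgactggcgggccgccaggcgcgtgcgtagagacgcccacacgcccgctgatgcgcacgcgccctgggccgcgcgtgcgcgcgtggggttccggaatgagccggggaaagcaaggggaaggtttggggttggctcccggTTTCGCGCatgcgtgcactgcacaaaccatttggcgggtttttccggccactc
LIG1: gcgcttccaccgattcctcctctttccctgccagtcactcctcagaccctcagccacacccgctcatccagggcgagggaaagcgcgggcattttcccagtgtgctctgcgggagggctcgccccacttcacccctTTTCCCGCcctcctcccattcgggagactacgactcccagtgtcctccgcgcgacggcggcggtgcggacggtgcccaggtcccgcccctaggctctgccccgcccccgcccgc
TIMELESS: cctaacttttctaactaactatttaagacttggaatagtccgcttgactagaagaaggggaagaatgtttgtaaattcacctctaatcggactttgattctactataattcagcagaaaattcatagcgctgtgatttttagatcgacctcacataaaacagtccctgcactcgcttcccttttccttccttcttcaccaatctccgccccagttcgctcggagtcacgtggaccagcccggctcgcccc

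The octamer began at position -39 in TYMS, -53 in POLA2 and -114 in LIG1, counted from the RefSeq start with -1 as the first base before it, and E2F1 had matches at -33 and -20. No octamer was in the windows of FEN1 and TIMELESS, which says only that these letters are absent there. A window was given for 41 of the 50 members, and it was missing for MCM4, MCM5, GINS4, DSCC1, POLD3, RPA2, RPA3, E2F8 and CCNE2. An E2F octamer was present in 14 of the 41 (34.1%), namely MCM3, MCM6, MCM7, CDT1, GINS2, PCNA, RFC3, POLA1, POLA2, POLE, LIG1, TYMS, E2F1 and E2F2. Among 11155 tested protein-coding genes with a window, 485 had one (4.35%). The octamer was in 2 of the 8 windows of members called lower, 2 of the 6 of members called higher and 10 of the 27 of members not called, so it occurred in all 3 classes. Of the 14 members, 3 had more than 1 match and 2 had a match that overlapped another motif searched. The CCAAT box (CCAAT, either strand) was in 23 of the 41 windows (56.1%) against 34.9% of all, the GC box GGGCGG in 29 (70.7%) against 67.3%, and the cell cycle element CHR (TTTGAA or TTCGAA) in 2 (4.88%) against 9.31%. Such matches are descriptions of sequence, not measured binding.

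Of the 10 origin licensing genes, 2 fell and 1 rose. CDC6, which brings the MCM ring to the origin, was counted 3021 and 3276 times with vehicle, against 395 and 217 times with CPI-455. That is 147 ± 4.93 CPM (SD, n = 2) against 43.7 ± 0.984, and the groups lay far apart beside the gap within each. CDC6 (chr17:40287633-40304657) had a log2 fold change of -1.74 (SE 0.12, FDR = 3.54e-06). MCM2, a subunit of the ring, had 5026 and 5900 counts with vehicle, against 1228 and 550 with CPI-455, or 254 ± 22.8 against 124 ± 20.5 CPM. Both CPI-455 libraries were below both vehicle libraries, and the log2 fold change was -1.03 (SE 0.14, FDR = 0.000175). MCM5, another subunit of the same ring, went the other way, from 2111 and 2044 counts to 1973 and 926 in the shallower libraries. Its level rose from 96.8 ± 4.49 to 203 ± 27.1 CPM, with both CPI-455 libraries above both vehicle libraries (log2 fold change 1.07, SE 0.13, FDR = 8.06e-05). MCM2 and MCM5 sat just past 2-fold and were called in 10 and 12 of the 16 alternatives, with ranges of -1.24 to -0.85 and 0.88 to 1.25. Among single libraries, the call of MCM2 was lost without vehicle replicate 2 (log2 fold change -0.97) or CPI-455 replicate 2 (-0.92) and that of MCM5 without vehicle replicate 2 (0.996) or CPI-455 replicate 1 (0.91).

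The remaining licensing genes did not pass both thresholds. MCM7 was the highest of them per kilobase of exon, at a mean of 79.8 CPM per kb, closely followed by MCM3 at 79.1. MCM7 had 7860 and 7741 counts with vehicle, against 3219 and 1570 with CPI-455, and its level of 363 ± 12.5 CPM with vehicle overlapped that of 337 ± 35.8 CPM with CPI-455 (log2 fold change -0.11, SE 0.12, FDR = 0.436). The other subunits of the ring had log2 fold changes of -0.80 (MCM4), -0.44 (MCM6) and -0.38 (MCM3), each past the FDR threshold. With the length and GC trend removed, MCM6 was at -0.076 and did not pass (FDR = 0.631). Of the factors that load the ring, ORC1 had -0.50 and ORC6 0.76, both past the FDR threshold, and CDT1 had -0.30 (FDR = 0.160) with CPI-455 libraries at 258 and 169 CPM. The 6 subunits of the MCM ring thus spanned 2.10 on the log2 scale, from MCM2 to MCM5.

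Of the 6 genes of helicase activation, 1 fell and none rose under both thresholds. GINS3, a subunit of the GINS complex, had 1034 and 1134 counts with vehicle, against 192 and 121 with CPI-455, or 50.4 ± 2.10 against 22.8 ± 1.70 CPM. The groups were well separated, with a log2 fold change of -1.15 (SE 0.16, FDR = 0.000172). GINS3 was called in 12 of the 16 alternatives. It was below 2-fold in size with, among others, the length and GC trend removed (-0.83) and upper-quartile normalization (-0.98). CDC45, which binds the MCM ring with GINS, was the highest of the role per kilobase (18.6 CPM per kb), with 787 and 801 counts against 607 and 352. CDC45 stood at 37.0 ± 0.412 CPM with vehicle and 69.0 ± 1.09 with CPI-455, and its log2 fold change of 0.90 (SE 0.13, FDR = 0.000298) passed the FDR threshold short of 2-fold. GINS4 had 0.88 and MCM10, which helps to activate the helicase, -0.78, both past the FDR threshold, while GINS2 had 0.21 and GINS1 0.08. Other genes overlap 10.9% of the exon bases of GINS3 and 23.6% of those of GINS4, and fragments there were not counted.

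Among the 7 genes of the clamp and its loaders, RFC4 rose and no gene fell under both thresholds. RFC4, a small subunit of the clamp loader (chr3:186789880-186807058), had 1382 and 1443 counts with vehicle, against 1566 and 843 with CPI-455. In CPM this was 65.8 ± 0.455 against 172 ± 6.33, a difference much larger than the spread in either group (log2 fold change 1.39, SE 0.11, FDR = 8.40e-06). PCNA, the clamp itself, was the highest of all 50 members per kilobase, at 164 CPM per kb. It had 6090 and 6502 counts with vehicle, against 1761 and 906 with CPI-455, or 293 ± 6.64 against 189 ± 13.0 CPM, without overlap (log2 fold change -0.63, SE 0.11, FDR = 0.000874). The other RFC subunits had values opposite to RFC4 in sign under the scaling used, at -0.82 for the large subunit RFC1, -0.47 for RFC2, -0.37 for RFC3 and -0.11 for RFC5, of which the first 3 passed the FDR threshold and RFC5 turned positive in 4 alternatives. With the length and GC trend removed, RFC3 was at -0.097 and did not pass (FDR = 0.481). DSCC1, which serves an alternative loader, had -0.25 (FDR = 0.198).

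Of the 8 polymerase and primase genes, 1 fell and 2 rose, and subunits of the same enzyme had changes of opposite sign. POLD3, an accessory subunit of polymerase delta, was counted 2106 and 2311 times with vehicle, against 435 and 172 times with CPI-455. Its level was 103 ± 4.32 against 41.5 ± 10.5 CPM, lower in both CPI-455 libraries although these were themselves apart (log2 fold change -1.29, SE 0.17, FDR = 0.000146), and with the length and GC trend removed it was -0.86 and no longer called. POLE2, the second subunit of polymerase epsilon, was one of the lowest members, with 179 and 148 counts against 234 and 136. It rose from 7.63 ± 1.20 to 26.6 ± 0.462 CPM (log2 fold change 1.80, SE 0.22, FDR = 8.34e-05). POLA2, the accessory subunit of polymerase alpha (chr11:65261762-65305589), had 1211 and 1340 counts with vehicle, against 1743 and 941 with CPI-455. Its level rose from 59.3 ± 2.84 to 191 ± 6.66 CPM (log2 fold change 1.69, SE 0.12, FDR = 3.24e-06), and for both genes the groups were wide apart.

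POLD1, the catalytic subunit of polymerase delta, was the highest of these genes per kilobase (23.7 CPM per kb). It had 2019 and 1927 counts with vehicle, against 1466 and 566 with CPI-455, or 91.9 ± 5.20 against 139 ± 37.2 CPM, higher in both CPI-455 libraries but with a wide gap between them (log2 fold change 0.60, SE 0.17, FDR = 0.0123). The log2 fold change of POLD1 was 0.27 without CPI-455 replicate 1 and 0.80 without CPI-455 replicate 2. With library totals alone it was 0.41 and did not pass the FDR threshold (FDR = 0.0607). POLE, the catalytic subunit of polymerase epsilon, had 0.95 and the primase subunit PRIM1 0.59, while POLA1, the catalytic subunit of polymerase alpha, had -0.57 and the primase subunit PRIM2 -0.72. All 4 passed the FDR threshold short of 2-fold. Within the alpha-primase complex, POLA2 and PRIM1 thus had positive values and POLA1 and PRIM2 negative ones, and in polymerase epsilon both POLE and POLE2 were positive. With the length and GC trend removed, POLA1 was at -0.11 (FDR = 0.369) and PRIM2 at -0.25 (FDR = 0.245), so neither passed the FDR threshold.

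FEN1 and LIG1, which act one after the other on the same Okazaki fragment, went in opposite directions. FEN1 (chr11:61792637-61797244) was counted 6656 and 6517 times with vehicle, against 435 and 243 times with CPI-455. Its level fell from 307 ± 11.8 to 48.6 ± 0.519 CPM, 6.31-fold, and the CPI-455 libraries lay close together (log2 fold change -2.66, SE 0.12, FDR = 5.83e-07). With vehicle FEN1 was the second highest of the 50 members per kilobase, at 124 CPM per kb, and with CPI-455 it stood at 19.6 CPM per kb. LIG1 (chr19:48115445-48170603) had 1986 and 1719 counts with vehicle, against 2758 and 1371 with CPI-455. It rose from 86.4 ± 10.8 to 291 ± 27.1 CPM, 3.37-fold (log2 fold change 1.75, SE 0.13, FDR = 5.39e-06). The 3 subunits of the single-strand binding protein RPA also differed, at -0.96 for RPA1, -0.90 for RPA2 and 0.90 for RPA3, each past the FDR threshold. RPA3 had CPI-455 libraries at 55.4 and 89.0 CPM, and its log2 fold change was 0.49 without CPI-455 replicate 2 and 1.19 without CPI-455 replicate 1.

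Of the 4 genes of nucleotide supply, 2 fell and the other two had negative values. TYMS, which makes thymidylate, had 2514 and 2920 counts with vehicle, against 393 and 189 with CPI-455. It stood at 126 ± 10.4 against 40.8 ± 4.75 CPM, without overlap (log2 fold change -1.62, SE 0.14, FDR = 1.12e-05). RRM1, the large subunit of ribonucleotide reductase and the highest of the role per kilobase (41.3 CPM per kb), had 4869 and 5692 counts against 885 and 498. RRM1 fell from 246 ± 21.3 to 99.1 ± 0.548 CPM (log2 fold change -1.31, SE 0.12, FDR = 1.44e-05), and with the length and GC trend removed it was -0.97, just under 2-fold. TK1, the cytosolic thymidine kinase, passed the FDR threshold but narrowly missed 2-fold at a log2 fold change of -0.997. It was called lower in 7 of the 16 alternatives, and with the length and GC trend removed it was at -1.51. RRM2, the small reductase subunit whose level follows the cell cycle, had -0.33 (FDR = 0.0953) and was not negative with the length and GC trend removed (0.02). For TYMS, 26.2% of the exon bases are shared with another gene, the largest share among the members after CCNE2, and the counts come from the rest.

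Of the 5 E2F and cyclin E genes, 3 fell and none rose. CCNE1, which encodes cyclin E1, had 786 and 660 counts with vehicle, against 94 and 46 with CPI-455. It fell from 33.7 ± 4.94 to 9.85 ± 1.02 CPM, 3.39-fold (log2 fold change -1.76, SE 0.21, FDR = 7.30e-05). E2F1, the activating E2F and the highest of the role per kilobase (24.4 CPM per kb), had 1691 and 1925 counts against 357 and 181, or 84.1 ± 5.72 against 38.0 ± 3.01 CPM. The groups did not overlap (log2 fold change -1.14, SE 0.14, FDR = 9.14e-05), although with upper-quartile normalization or protein-coding genes alone the change was -0.96 and short of 2-fold. With the length and GC trend removed the change was larger, at -1.49, and E2F1 was called in 14 of the 16 alternatives. CCNE2, which encodes cyclin E2, had 421 and 512 counts with vehicle, against 109 and 45 with CPI-455, or 21.7 ± 2.48 against 10.6 ± 2.36 CPM. Its log2 fold change was -1.01 (SE 0.23, FDR = 0.00415), it was called in 7 of the 16 alternatives, and leaving out vehicle replicate 2 (-0.93) or CPI-455 replicate 2 (-0.87) ended the call. Other genes overlap 37.1% of its exon bases. E2F2, another activating E2F, had -0.97 past the FDR threshold, and the repressive E2F8 had -0.04 with overlapping groups and a sign that changed with the scaling.

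The 3 genes of chromatin assembly and histone mRNA had similar log2 fold changes and none reached 2-fold. CHAF1A, the large subunit of chromatin assembly factor CAF-1 and the highest of the role per kilobase (45.8 CPM per kb), had 5227 and 5718 counts with vehicle, against 1318 and 656 with CPI-455. Its level was 255 ± 10.1 against 139 ± 12.8 CPM, without overlap (log2 fold change -0.87, SE 0.12, FDR = 0.000171). The partner CHAF1B had -0.89, and SLBP, which binds the stem-loop of histone mRNA, had -0.72, both past the FDR threshold. With the length and GC trend removed, CHAF1A was at -0.91, CHAF1B at -0.59 and SLBP at -0.90.

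Both genes of fork protection and the checkpoint rose. TIMELESS (chr12:56416373-56449403) was counted 1535 and 1593 times with vehicle, against 3255 and 1747 times with CPI-455, more often in each of the shallower libraries. It rose from 72.8 ± 0.190 to 356 ± 13.9 CPM, 4.89-fold (log2 fold change 2.29, SE 0.11, FDR = 7.52e-07). CLSPN, which encodes claspin, the adaptor that relays fork stalling to the kinase CHK1, was the higher of the pair per kilobase (51.3 CPM per kb). It had 3725 and 3749 counts with vehicle, against 3561 and 1822 with CPI-455, and rose from 174 ± 3.32 to 381 ± 27.7 CPM (log2 fold change 1.13, SE 0.11, FDR = 2.29e-05). With library totals alone CLSPN was at 0.94 and with no filter at 0.98, each just short of 2-fold.

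**Figure D2:**
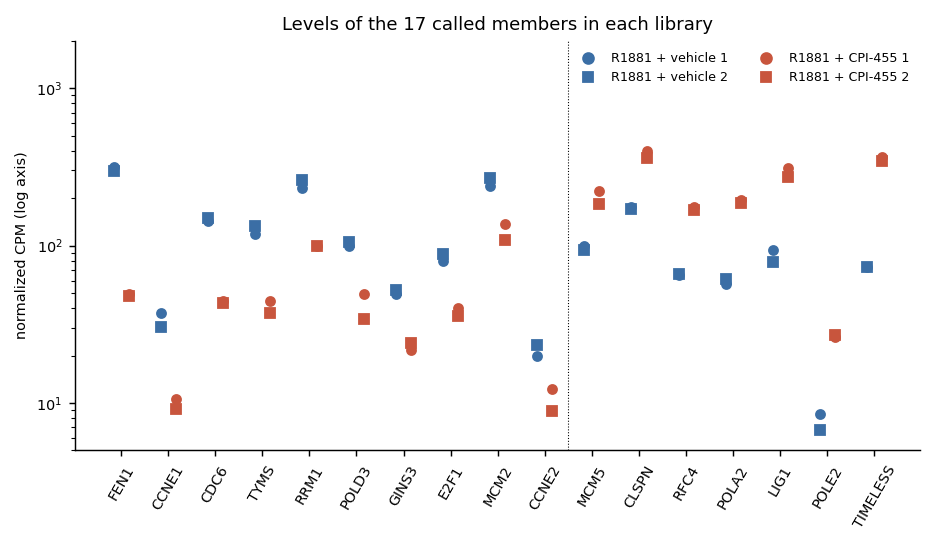
Level of the 17 called members in each library (y axis, normalized CPM on a log axis), with circles for replicate 1 and squares for replicate 2 of each group. For each of the 10 genes left of the dotted line both vehicle libraries (blue) lie above both CPI-455 libraries (red), and for each of the 7 to its right both lie below, from FEN1 at 307 against 48.6 CPM to TIMELESS at 72.8 against 356 CPM (group means).

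Ratios within a library compare partners without any scaling between libraries. For each complex or pair, the member with the highest fold change was set over the one with the lowest, as fragments per kilobase of exon. The pairs were therefore chosen by their values, and the ratios are a description with no test. LIG1 over FEN1 was 0.112 and 0.0994 with vehicle, against 2.39 and 2.13 with CPI-455, a 21.3-fold difference between the group means. FEN1 was thus the more abundant of the pair per kilobase in both vehicle libraries and LIG1 in both CPI-455 libraries. POLA2 over PRIM2 went from 1.64 and 1.57 to 8.61 and 8.52, which is 5.33-fold. RFC4 over RFC1 was 0.676 and 0.632 with vehicle, against 3.44 and 2.66 with CPI-455, and MCM5 over MCM2 was 0.281 and 0.231 with vehicle, against 1.07 and 1.12 with CPI-455. In both of these the order of the partners changed as well.

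GINS4 over GINS3 went from 0.771 and 0.664 to 3.20 and 2.65, and POLD1 over POLD3 from 1.09 and 0.945 to 3.82 and 3.73. RPA3 over RPA1 was 0.381 and 0.435 with vehicle, against 1.16 and 1.83 with CPI-455, and ORC6 over ORC1 was 1.45 and 1.35 with vehicle, against 3.25 and 3.47 with CPI-455. Smaller differences were seen for ribonucleotide reductase (RRM2 over RRM1, 1.95-fold), polymerase epsilon (POLE2 over POLE, 1.82-fold) and cyclin E (CCNE2 over CCNE1, 1.65-fold). CAF-1 was the exception, since CHAF1A over CHAF1B was 1.89 and 1.94 with vehicle, against 1.90 and 2.01 with CPI-455, a 1.02-fold difference. Such ratios keep any length and GC trend. With that trend removed, the log2 fold changes of CHAF1A and CHAF1B were further apart, at -0.91 and -0.59.

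**Figure D3:**
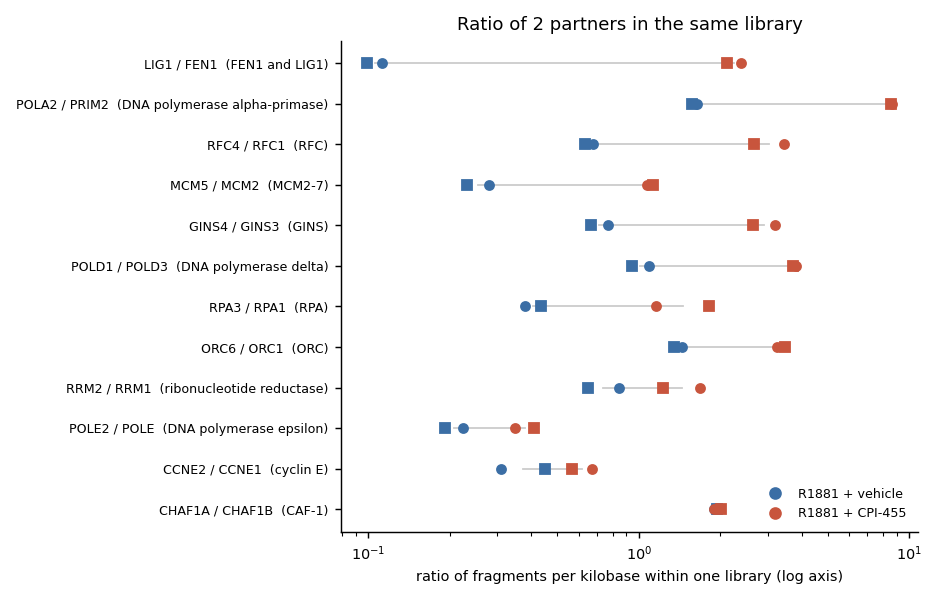
Ratio of the members with the highest and the lowest fold change of each complex or pair within a library (x axis, fragments per kilobase of exon, log axis), with circles for replicate 1, squares for replicate 2 and a grey line between the group means. LIG1 over FEN1 moves from about 0.112 and 0.0994 to 2.39 and 2.13, and CHAF1A over CHAF1B does not move (1.02-fold).

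Most members were well above the typical tested gene in level. Their counts ran from 45 (CCNE2 in CPI-455 replicate 2) to 8781 (MCM4 in vehicle replicate 2), the mean level from 3.67 CPM per kb (CCNE2) to 164 CPM per kb (PCNA), with a median of 23.7, and the standard error of the log2 fold change from 0.11 (MCM4) to 0.23 (CCNE2). The median level of all tested genes was 4.46 CPM per kb. Genes sharing more than 10% of their exon bases with another gene, which the counting left out, were GINS3, GINS4, RFC5, TYMS and CCNE2.

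Other genes of the same phase were followed as a list of 71, all tested. Of these, 18 fell (25.4%) and 11 rose (15.5%), with a median of -0.08, which is close to the shares of the protein-coding genes given above (24.4% and 15.6%). The largest falls were those of E2F7, a repressive E2F (log2 fold change -3.47, SE 0.17, FDR = 7.52e-07), CHTF8 (-3.09, SE 0.15, FDR = 7.26e-07), a small subunit of the alternative clamp loader that DSCC1 also serves, and UHRF1 (-2.40, SE 0.15, FDR = 2.08e-06), which maintains DNA methylation behind the fork. The largest rises were those of CHTF18, the large subunit of that loader (2.73, SE 0.19, FDR = 3.52e-06), E2F5 (2.46, SE 0.20, FDR = 7.92e-06) and ATRIP, the partner of the checkpoint kinase ATR (3.70, SE 1.07, FDR = 0.0133). ATRIP had 4 and 0 counts with vehicle, against 14 and 5 with CPI-455, and 78.8% of its exon bases are shared with other genes. By role, 12 of 26 other S-phase regulators fell and 3 rose, 2 of 17 other fork and polymerase genes fell and 5 rose, 3 of 12 other nucleotide genes fell and 2 rose, and 1 of 16 other origin and helicase genes fell and 1 rose.

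A list of 32 genes of G2 and mitosis had a different balance, with 2 lower and 13 higher (6.25% and 40.6%, against 21.3% and 21.0% of all tested genes) and a median of 0.87. The 2 that fell were FOXM1, a transcription factor of the G2 programme (log2 fold change -2.25, SE 0.14, FDR = 1.81e-06), and the kinetochore gene CENPF (-1.21, SE 0.16, FDR = 0.000171). UBE2C, the ubiquitin-conjugating enzyme of the anaphase-promoting complex (3.03, SE 0.13, FDR = 5.83e-07), and PTTG1, which encodes securin (2.46, SE 0.16, FDR = 2.12e-06), rose the most. The difference between the lists was not tested.

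**Figure D4:**
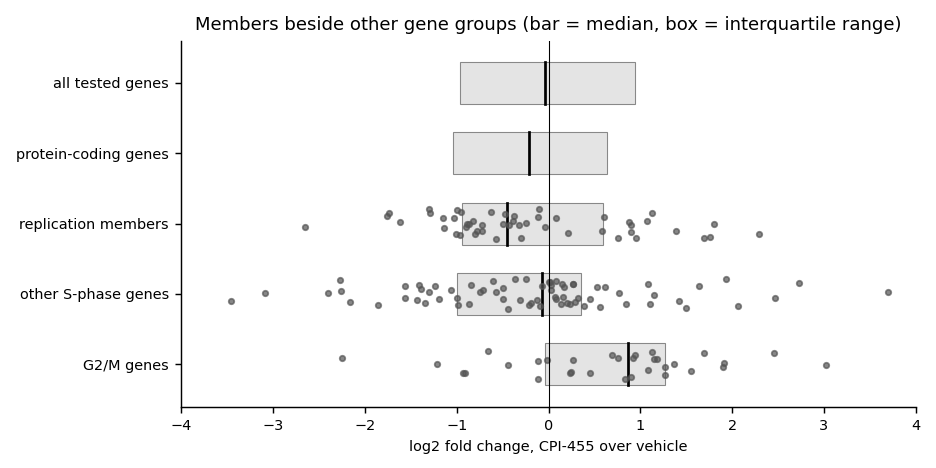
Log2 fold change (x axis, CPI-455 over vehicle) of the 50 replication members, the 71 other S-phase genes and the 32 G2/M genes, 1 point per gene, with boxes for the interquartile range and bars for the median, beside those of all tested and of protein-coding genes. The medians are -0.45, -0.08 and 0.87 for the lists and -0.04 and -0.21 for the backgrounds.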

How the data were processed

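RNA-seq of LNCaP cells was analysed in 4 libraries, 2 per group, grouped and numbered as in the sample labels. After adapter trimming, the authors used STAR on GRCh38 and featureCounts 1.5.0-p1 on Ensembl release 83, and the deposited values are raw fragment counts per gene. Per the file headers counting ignored strand and skipped multi-mapping fragments and those on more than 1 gene, so overlapping genes are less certain. How the RNA was selected is not given in the sources used here.

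All 60675 genes were read, and filterByExpr (minimum count 10) left 17600. The groups were compared with edgeR 4.0.16 (R 4.3.3) by TMM, glmQLFit and glmQLFTest without covariates, and p-values were adjusted by Benjamini-Hochberg over all tested genes, with an FDR below 0.05 and a 2-fold change as thresholds. The p-values measure the spread between 2 samples per group, whose counts differed by more than sampling noise (chi-square per degree of freedom 5.77 with vehicle and 8.63 with CPI-455). CPM are on TMM-adjusted library sizes. Counting limits cover counting error only.

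The members and all gene lists were chosen with earlier results of these data known. Every member is named with its log2 fold change. Counts, CPM, SE and FDR are given in each role for called members, at most the 4 largest changes, and for the member highest in CPM per kilobase. Of the other S-phase genes the 3 called genes of largest change in each direction are named, and of the G2/M genes the 2 largest, while the marker and KDM5 lists are given whole except for some genes that are not reported here. The ratio pairs, the promoters shown and the genes under other observations were chosen after their values were seen.

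Alternatives tried were scaling by upper quartile, RLE or library totals, protein-coding genes alone, no filter or at least 10 counts in each of the libraries, edgeR's likelihood-ratio test, DESeq2 1.42.0, a replicate block, removal of a length and GC trend (mgcv 1.9.3) with and without that block, no minimum fold, glmTreat, thinning to equal depth and leaving out each library.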

Additional observations from a re-analysis of the deposited data

How the results depend on the processing

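With 2 libraries per group, the spread was pooled over genes, and a library left alone in its group was assumed to vary like the other group. The members called lower, 10, were 6 with upper-quartile normalization, 6 with protein-coding genes only, 17 with library totals, 16 with no filter, 28 with no minimum fold and 5 with glmTreat. Those called higher, 7, were 11, 11, 5, 5, 14 and 5 in the same order. Of all genes tested, 13.6% were lower and 9.92% higher with no filter, and 13.4% and 13.9% with glmTreat. With the length and GC trend removed, 8 members were lower and 10 higher, with or without a replicate block. Of the other S-phase genes, 29 were lower and 17 higher with no minimum fold, and 7 were higher with no filter. Over all tested genes no minimum fold gave 5767 lower, and glmTreat gave 2350 lower and 2455 higher. On leaving out 1 library, the median log2 fold change of the members ran from -0.58 (without CPI-455 replicate 1) to -0.44 (without CPI-455 replicate 2). That of all tested genes ran from -0.19 (without CPI-455 replicate 1) to 0.02 (without vehicle replicate 2). With a replicate block, 11 members were lower and 7 higher, and TK1 (-1.01) was the added call. Of all tested genes, 21.3% were lower and 19.4% higher with that block. Deviations of same-numbered libraries correlated at 0.03 over all tested genes and 0.08 above a mean log2 CPM of 3. No strong effect shared by number was thus seen, but with 2 libraries per group this cannot tell whether the samples were paired. Signs reversed for E2F8 (0.14 with upper-quartile normalization, 0.14 with protein-coding genes only, 0.00577 with at least 10 counts in every library, 0.25 with the length and GC trend removed, 0.23 with that and the block, and -0.228 to 0.0531 on leaving out 1 library), GINS1 (-0.11 with library totals, -0.0754 with no filter, -0.16 without CPI-455 replicate 2), MCM7 (0.0670 with upper-quartile normalization, 0.0725 with protein-coding genes only, 0.0662 thinned to equal depth), RFC5 (0.0612 with upper-quartile normalization, 0.0666 with protein-coding genes only, and 0.0967 and 0.0992 with the trend removed with and without the block) and RRM2 (0.0247 and 0.000325 with the trend removed without and with the block). Over single members and all alternatives except no minimum fold, 748 results kept their direction and side of the threshold, 38 lost the call and 46 gained one. The cause of these differences was not tested, beyond the scalings' own shifts given above and, with no minimum fold and glmTreat, the changed threshold. Depth limited the CPI-455 libraries most, where CCNE2 had 45 counts in the shallowest.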

Other observations

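Partners of the members that are not themselves on the list also differed from them. TIPIN, which binds TIMELESS at the fork, had a log2 fold change of -0.58 (FDR = 0.00880) where TIMELESS had 2.29, and TIMELESS over TIPIN in fragments per kilobase was 0.812 and 0.765 with vehicle, against 5.65 and 5.91 with CPI-455. Of the small subunits of polymerase epsilon, POLE3 fell (-1.35, FDR = 1.75e-05) and POLE4 rose (log2 fold change 1.496, FDR = 8.82e-05), and POLE over POLE3 went from 0.131 and 0.119 to 0.721 and 0.524. CHTF18 over CHTF8, which belong to the same alternative clamp loader, was 0.238 and 0.171 with vehicle, against 11.9 and 11.5 with CPI-455. These pairs were chosen after their values were seen, and the ratios are descriptions without a test. Other genes overlap 21.0% of the exon bases of TIPIN and 12.9% of those of CHTF8. Fragments there were not counted although the lengths include those bases, so the position of these ratios around 1 is less certain.

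The regulators upstream of the members also moved unevenly. Both dimerization partners of the E2F factors fell, with log2 fold changes of -1.31 for TFDP2 and -1.19 for TFDP1. RB1, the founding member of the RB family that restrains E2F, fell (-1.85), as did its relative RBL1 (-1.57), while RBL2 had 0.24 (FDR = 0.116). RBL2 over RB1 was 0.873 and 0.675 with vehicle, against 3.13 and 3.39 with CPI-455, and other genes overlap 18.2% of the exon bases of RBL2. MYBL2, which acts with FOXM1 late in the cycle, fell (-1.23), and CDC25A, the phosphatase that activates cyclin-dependent kinase at the start of S phase, fell (-1.56). Both genes of the histone chaperone ASF1 fell (-2.17 for ASF1A and -1.44 for ASF1B), and ASF1B over ASF1A was 2.00 and 2.30 with vehicle, against 3.25 and 4.24 with CPI-455. Geminin (GMNN), the inhibitor of CDT1, had 0.77 (FDR = 0.000624), past the FDR threshold short of 2-fold. CDC7 and DBF4, the kinase that fires origins and its activator, had -0.22 (FDR = 0.110) and -0.09 (FDR = 0.579), and neither passed.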
